A study of Mus musculus with 2 samples.

Results

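Tight junctions are belts of strand-forming membrane proteins that close the space between neighbouring epithelial cells. Claudins, small proteins that cross the membrane several times, make the strands and set which ions pass, while occludin and the junctional adhesion molecules sit beside them and scaffold proteins such as ZO-1 tie them to actin. The neural plate begins as an epithelium with tight junctions, loses occludin around the time the neural tube closes and is then held together mainly by adherens junctions, with ZO-1 retained at the apical side.

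The genes described here are 9 claudins and tight junction genes (Cldn10, Cldn3, Cldn6, Cldn7, Cldn12, Ocln, Tjp1, Cgn and F11r). Every probe set annotated to them alone was taken, which gave 16 probe sets of the 34957 on the array that name a single gene, or 9 genes of 18201. Cldn10 was chosen by its deposited KO and WT signals, which were already known to differ, so its values are given as a description and support nothing further. The other 8 were named beside it as epithelial claudins and junction scaffolds, with the results of the same arrays known. No probe set that names several genes includes any of the 9.

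The study set the brain of a knockout (KO) mouse embryo against that of a wild-type (WT) embryo at E10.5 (midgestation, counted from the day of the plug). Both samples carry the strain label C57BL/6, and each was hybridised to 1 Affymetrix 3' expression array as labelled cRNA made from 250 ng of total RNA. The labels name neither the gene knocked out nor the kind of allele, the sex of the embryos, how many embryos were pooled or whether the WT embryo was a littermate, and some label fields speak of embryos where others give brain as the tissue. With 1 array per genotype there is no replicate error for any value, no p-value is given, and every difference is between these arrays only.

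Values are the deposited linear signals. Differences are KO minus WT on the scale of log2(signal + 16), where a value of 1 is a 2-fold change for bright genes and the added 16 shrinks the difference of dim ones. A probe set was counted as measured above the lower part of the array, here called passing the level filter, when its higher array reached the median of all named probe sets, a signal of 21.6. Where each gene is represented by its brightest probe set, that median is 41.6. Levels of different probe sets are not set against each other, because each binds its target with its own strength.

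Brain markers were read in both arrays, which goes with the tissue label but does not show that the samples were brain alone. Sox1, Sox2 and Nes, markers of neural progenitors, read between 359 and 1687 in the 2 arrays, and the heart genes Myh6 and Nkx2-5 and the liver genes Afp and Alb read at most 7.68. Markers of head mesenchyme were also read, with Col3a1 at 1398 in KO and 1554 in WT and Col1a2 at 745 and 634. The samples thus held more than neural cells. The arrays also differed in sex-linked transcripts, with Xist, the non-coding RNA made by the inactive X chromosome, at 2023 in KO and 5.19 in WT, and the Y-linked Eif2s3y, Kdm5d and Uty lower in KO by differences of -4.05, -3.56 and -2.55. Genotype and embryo sex therefore cannot be told apart for any gene below. Across all genes the median difference was 0.0011, and the SD of the difference among probe sets for 1 gene was 0.18 (4633 genes), which measures probe noise and says nothing of embryos.

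The claudin and tight junction set split into 1 gene with a large difference and 8 with small or poorly measured ones. Of the 16 probe sets, 6 passed the level filter and 1, that of Cldn10, was at least 2-fold apart, against 0.366% of all named probe sets passing the filter. Since Cldn10 was chosen for that value, nothing is read from the count. The other 5 probe sets that passed, of Cldn12, Tjp1, Cgn and F11r, differed by -0.16 to 0.20. The median over the 9 genes was 0.028, with 5 higher and 4 lower in KO, and over all genes 50.3% were higher.

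**Figure D1:**
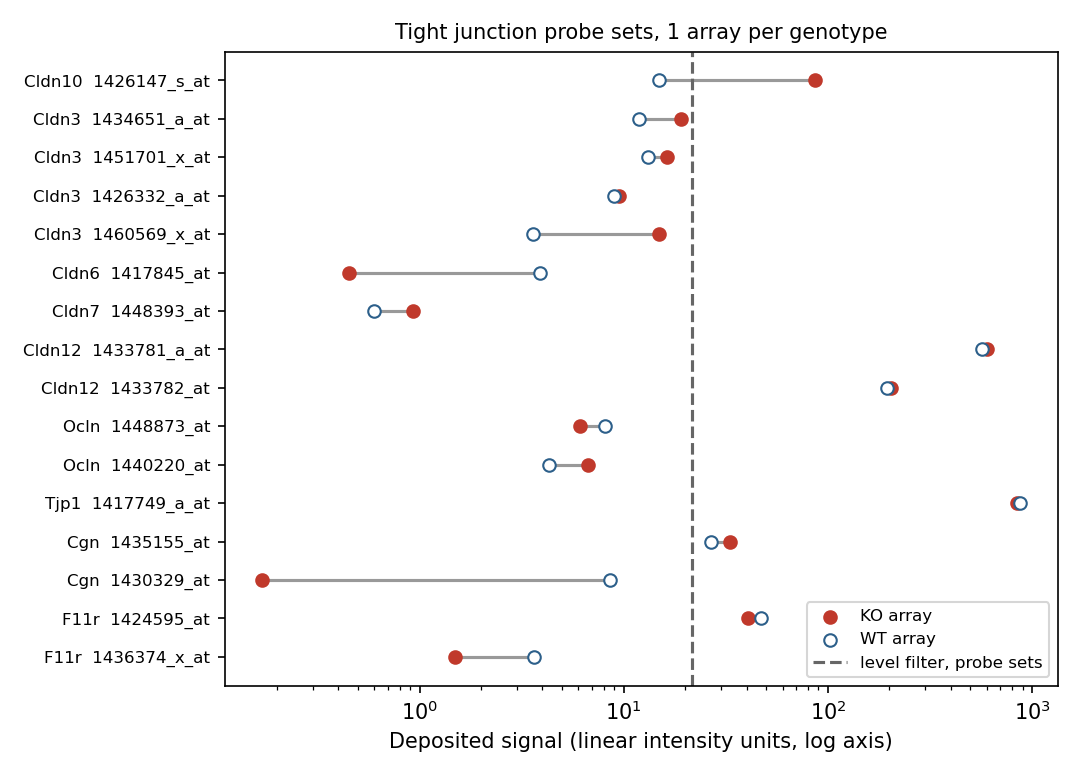
Deposited signals (linear units on a log axis) of the 16 probe sets of the claudin and tight junction genes in the KO array (filled) and the WT array (open), 1 array each, with no error bars because there are no replicates. The dashed line is the level filter for probe sets at 21.6; Cldn10 is the probe set whose points lie on opposite sides of it, and Cldn12 and Tjp1 show nearly coincident points far above it.

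Cldn10 encodes a claudin that forms ion-selective channels between cells in several epithelia. Its single probe set, 1426147_s_at, read 86.3 in the KO array and 14.8 in the WT array. The KO array was thus the high one, and the WT signal lay below the level filter, close to the median signal of 13.2 over the whole WT array. The ratio of the signals was 5.82, and the difference was 1.73. The 500 genes nearest to it in mean level had a central 95% of differences from -0.55 to 0.47. Among the 9296 genes passing the filter it ranked 7 from the top for the difference, and 0.237% of those genes were at least 2-fold higher in KO. It passed the filter through its KO signal alone. Raising the pseudocount to 64 gave 0.93 and lowering it to 1 gave 2.46, so the 2-fold call was lost at the larger value, as it was with the level filter at the 75th percentile. Because the WT signal is near background, the ratio depends on a poorly measured denominator. No second probe set of Cldn10 is on hand to compare, and the suffix of this probe set marks probes that can match more than 1 transcript. In a whole tissue, fewer cells making a transcript and less of it per cell cannot be told apart.

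**Figure D2:**
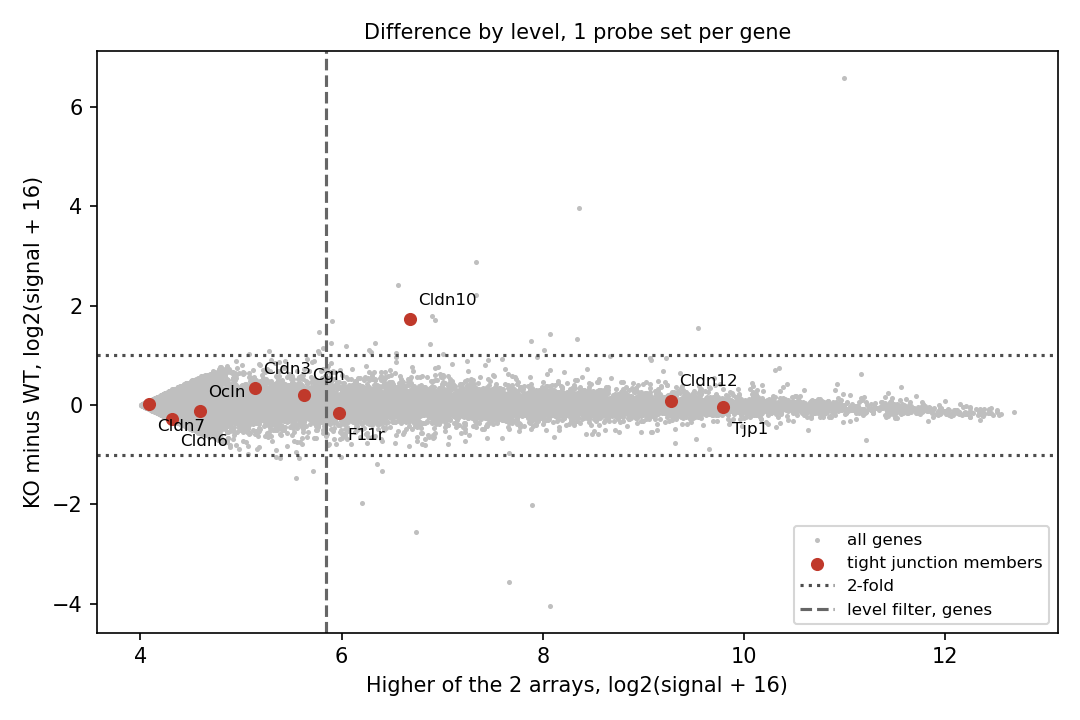
KO minus WT difference on the log2(signal + 16) scale against the higher of the 2 arrays, for 18201 genes (grey) and the 9 claudin and tight junction genes (red), 1 probe set per gene. Dotted lines mark 2-fold and the dashed line the level filter for genes at a signal of 41.6; Cldn10 stands at 1.73 and the other 8 genes lie between -0.27 and 0.34.

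The genes whose difference was closest to that of Cldn10 were found by rank in the same comparison, over 2 arrays only. The 5 next above it were Fgf8 (1.80), Fgf17 (2.22), the transcript G530011O06Rik (2.43), Msx3 (2.88) and Desi1 (3.97). The 5 next below were Cthrc1 (1.70), Igtp (1.68), Il17rd (1.55), Spry1 (1.43) and Spry2 (1.33). Fgf8 and Fgf17 are growth factors of the isthmus, the signalling centre between midbrain and hindbrain, and Il17rd, Spry1 and Spry2 encode inhibitors of FGF signalling.

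Cldn10 lies on chromosome 14 at positions 118787871 to 118874525 of the mouse assembly GRCm38.p6, and its nearest measured neighbour on the lower side was also higher in KO. That neighbour is Abcc4, which encodes a membrane exporter of organic anions and cyclic nucleotides. Abcc4 is on the minus strand and Cldn10 on the plus strand, so the gap of 80.0 kb lies between the start sides of both genes. The single probe set of Abcc4 read 220 in KO and 81.1 in WT. Both arrays were thus well above the level filter, and the difference was 1.28. On the other side, Dzip1, a gene of cilium formation whose nearer edge lies 0.992 kb past the end of Cldn10, read 136 in KO and 114 in WT (0.23). Dnajc3, an endoplasmic reticulum co-chaperone gene, read 386 and 322 (0.25).

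Measured genes farther out differed little. Sox21, a transcription factor gene of neural progenitors on the far side of Abcc4, read 308 in KO and 301 in WT (0.028). Of the 16 nearest measured genes, 8 on each side, 8 passed the level filter for genes, and Abcc4 was the only one of them at least 2-fold apart, where 0.323% of all genes passing were. The 7 others that passed ran from -0.16 for Gpc6 to 0.25 for Dnajc3. Over the whole genome, 5238 pairs of adjacent measured genes had both members passing the filter, and Abcc4 with Cldn10 was the only pair with both at least 2-fold higher in KO. With a pseudocount of 64 in place of 16 neither gene of this pair reached 2-fold, at 0.97 for Abcc4 and 0.93 for Cldn10. In 2 pairs both genes were at least 2-fold lower, F13a1 with Ly86 and the Y-linked Kdm5d with Eif2s3y. Around the other 8 tight junction genes, 0 of the 45 neighbours passing the filter were 2-fold apart, and their differences ran from -0.22 to 0.21. Adjacency was looked at with the values of Abcc4 and Cldn10 already known, so it is a description of these arrays.

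**Figure D3:**
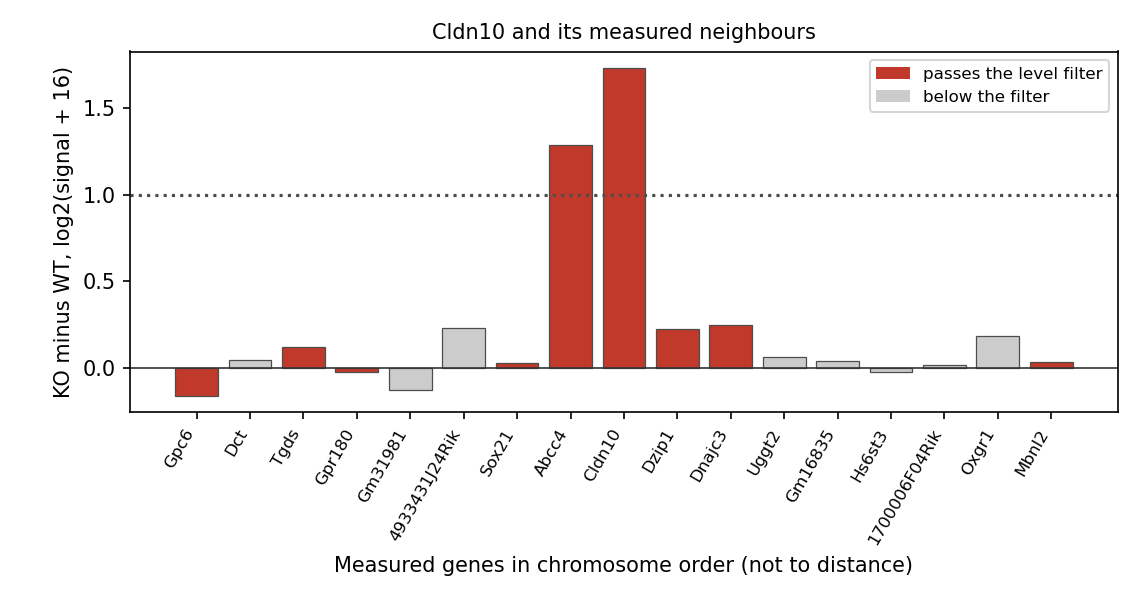
KO minus WT difference (log2(signal + 16) scale) of Cldn10 and the 8 nearest measured genes on each side, in chromosome order and not to distance, 1 probe set and 1 array per genotype. Abcc4 at 1.28 and Cldn10 at 1.73 exceed the dotted 2-fold line; the other genes, red where they pass the level filter and grey where they do not, lie between -0.16 and 0.25.

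RefSeq places start sites of Cldn10 at 2 points 67079 bases apart, and the sequences before them are shown because Cldn10 and Abcc4 were both higher in KO and because the probe set does not tell which start was used. Each stretch is the 250 bases before an annotated start in GRCm38.p6, written 5′ to 3′ on the gene's own strand, with CpG dinucleotides in capitals. The windows are chr14:118787621-118787870 and chr14:118854700-118854949 on the plus strand for Cldn10, and chr14:118706220-118706469 on the minus strand for the Abcc4 start nearest to Cldn10 in the table used.
Cldn10, first start: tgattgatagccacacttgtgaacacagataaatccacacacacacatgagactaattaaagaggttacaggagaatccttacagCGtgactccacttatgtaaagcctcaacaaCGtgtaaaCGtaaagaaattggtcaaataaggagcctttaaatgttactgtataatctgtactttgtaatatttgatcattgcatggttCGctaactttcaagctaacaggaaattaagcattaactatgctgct
Cldn10, later start: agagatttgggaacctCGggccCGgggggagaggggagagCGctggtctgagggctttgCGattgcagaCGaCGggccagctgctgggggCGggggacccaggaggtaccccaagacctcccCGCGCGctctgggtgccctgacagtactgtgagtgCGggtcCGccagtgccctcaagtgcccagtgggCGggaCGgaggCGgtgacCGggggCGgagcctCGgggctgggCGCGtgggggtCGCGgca
Abcc4: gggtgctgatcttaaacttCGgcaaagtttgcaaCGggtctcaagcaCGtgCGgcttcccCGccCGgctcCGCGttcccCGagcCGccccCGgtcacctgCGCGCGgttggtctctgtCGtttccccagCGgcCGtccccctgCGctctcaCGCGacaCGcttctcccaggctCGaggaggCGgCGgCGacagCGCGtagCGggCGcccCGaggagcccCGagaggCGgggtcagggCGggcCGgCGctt

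The Cldn10 windows differ sharply in base composition. The first holds 4 CpG dinucleotides and is 36.0% G or C, while the later one holds 22 and is 72.4% G or C. The Abcc4 window holds 35 and is 72.0% G or C. The median over all 32841 such windows was 6. The GC box GGGCGG, read on both strands, occurs 3 times before the later Cldn10 start and 3 times before Abcc4, and not before the first Cldn10 start; 32.7% of all windows hold it. The letters AACCNGGTT, in which N is any base, were searched for with the Grainyhead factors of epithelia in mind. They are in 0 of the 14 windows of the 9 tight junction genes and in 0.241% of all windows. The usual Grainyhead site lacks the middle base and would be missed by this search, and so rare a match is unlikely in 14 windows. The 0 therefore says nothing of Grainyhead sites. TATAAA and the ETS core CGGAAG, held by 12.4% and 13.6% of windows, are in neither Cldn10 window nor in the Abcc4 window shown. These are matches of letters in 250 bases and show neither binding nor use of a start. None of the 4 motifs contains another.

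Of the remaining claudins of the set, only Cldn12 passed the level filter. This claudin, which lacks the usual tail for binding ZO-1, was clearly measured by both of its probe sets. Probe set 1433781_a_at read 603 in KO and 569 in WT, a difference of 0.082. Probe set 1433782_at read 205 and 196, a difference of 0.059. Both probe sets thus put the KO array slightly above the WT array, within the SD of 0.18 between probe sets of a gene.

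Cldn3, Cldn6 and Cldn7, claudins typical of tight epithelia, were below the level filter in both arrays. All 4 probe sets of Cldn3 were higher in KO at low signals. The brightest, 1434651_a_at, read 19.2 in KO and 11.8 in WT (0.34). Probe set 1451701_x_at read 16.4 and 13.2 (0.15), and 1426332_a_at read 9.50 and 8.96 (0.030). The largest difference was that of 1460569_x_at, at 14.95 and 3.61 (0.66), a probe set whose suffix marks probes that can also match unrelated transcripts. These probe sets target the same transcript, so their shared direction is not that of independent measurements. The 500 probe sets nearest in level to 1434651_a_at had a central 95% of differences from -0.48 to 0.48, and that of 1460569_x_at lay outside the corresponding range of -0.46 to 0.50.

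Cldn6, a claudin of early embryonic epithelia, read 0.45 in KO and 3.90 in WT (-0.27), and Cldn7 read 0.93 and 0.60 (0.028). Signals this low carry no usable ratio. Among the claudins of the set, Cldn12 alone was above the level filter in both arrays, and Cldn10 was above it in KO only. The label of epithelial claudins names a kind of gene and does not mean that these transcripts were well measured here. The filter is not a detection call.

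Occludin, the first membrane protein found in tight junctions, was below the level filter on both of its probe sets. Ocln probe set 1448873_at read 6.08 in KO and 8.07 in WT (-0.12), and 1440220_at read 6.68 and 4.33 (0.16). The probe sets gave opposite signs. F11r, which encodes the junctional adhesion molecule JAM-A, read 40.5 in KO and 47.0 in WT on its brighter probe set 1424595_at (-0.16). Its dim probe set 1436374_x_at read 1.49 and 3.64 (-0.17).

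The scaffold Tjp1, which encodes ZO-1, the adaptor between claudins and actin, was bright and nearly level. Its probe set read 848 in KO and 870 in WT, a difference of -0.038. Cgn encodes cingulin, which links ZO-1 to actomyosin. Its brighter probe set 1435155_at read 33.4 in KO and 26.9 in WT (0.20), above the filter for probe sets and below that for genes. Its other probe set 1430329_at went the opposite way, at 0.17 in KO and 8.57 in WT (-0.60), both below the filter. That difference lay outside -0.54 to 0.49, the central 95% of the 500 probe sets nearest in level. For Cgn the direction thus depends on the probe set, and the brighter one was used.

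The wider tight junction machinery was close to level between the arrays. Of 56 further genes measured (claudins, other membrane proteins, and scaffold and polarity genes), 28 passed the level filter and 0 were at least 2-fold apart, where 0.323% of all genes passing were. Those passing ran from -0.25 to 0.25, with 17 higher and 11 lower in KO, and the median over all 56 was 0.026 beside 0.0011 over all genes. No further claudin passed the filter other than Cldn5, the claudin of blood vessels, at 125 in KO and 129 in WT (-0.045), and the claudin-domain gene Cldnd1 at 287 and 258 (0.14). Cldn9, the gene next to Cldn6 on chromosome 17 and the largest difference among the further claudins, was singled out after its value was seen. It read 24.3 in KO and 6.46 in WT (0.84), above the filter for probe sets and below that for genes.

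Among the other membrane proteins, 6 of 13 passed. Lsr, which marks corners where 3 cells meet, read 38.1 in KO and 46.1 in WT (-0.20) and passed through its WT signal alone. Esam, an adhesion molecule of vessel walls, read 108 and 114 (-0.078). Among scaffold and polarity genes, 20 of 25 passed, 14 higher and 6 lower in KO. The farthest apart were Arhgef2, whose product is held at junctions, at 109 and 133 (-0.25), and Pard6b, a subunit of the apical PAR complex, at 76.8 and 62.1 (0.25). The differences of these 4 genes lay within -0.25 to 0.25, beside 1.73 for Cldn10.

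**Figure D4:**
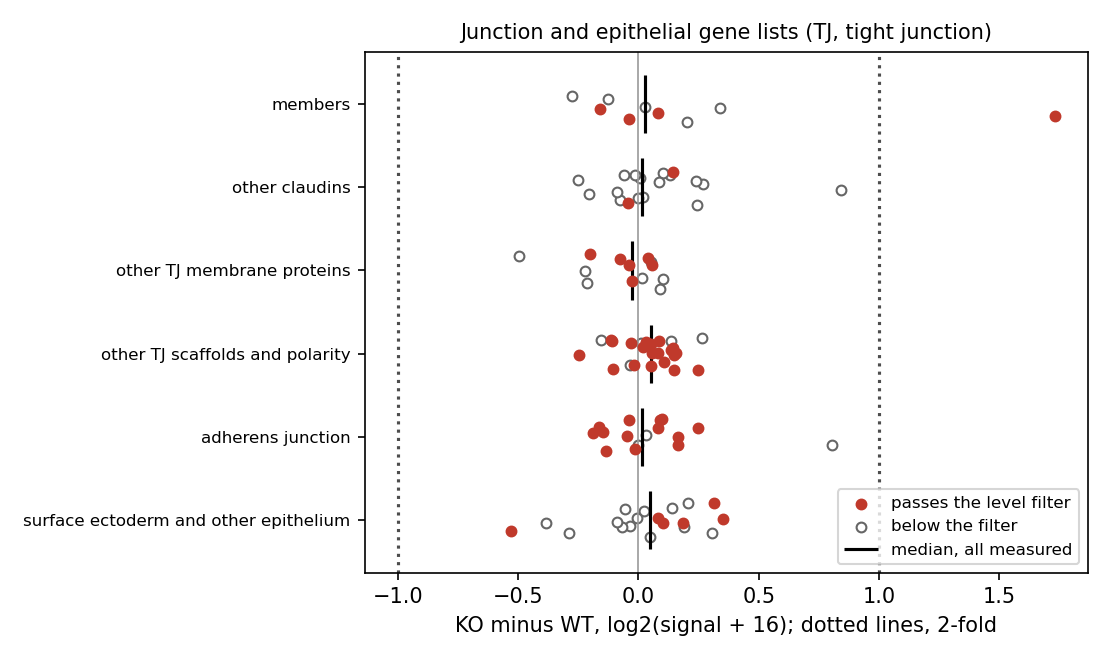
KO minus WT difference (log2(signal + 16) scale, dotted lines at 2-fold) of each gene in 6 lists of junction and epithelial genes, 1 point per gene, filled where the gene passes the level filter. Vertical bars are medians over all measured genes of a list, from -0.028 to 0.053; Cldn10 at 1.73 is the only point beyond 2-fold.

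Adherens junction genes, the main link between neuroepithelial cells, were also nearly level. Of 16 measured, 13 passed, 6 higher and 7 lower in KO, 0 were 2-fold apart and the median was 0.016. Vcl, the actin linker vinculin, read 504 in KO and 422 in WT (0.25). Ctnnb1, which encodes beta-catenin, read 3940 and 4494 (-0.19).

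Markers of other tissues that carry claudins were read beside Cldn10, and their part in its difference was not tested. Each summed signal takes in every measured gene of a list, also those below the filter, and is led by its brightest probe sets. No ratio is read from the sums. Of 19 markers of surface ectoderm and other epithelia, 6 passed the filter and 0 were 2-fold apart, and their summed signal was 372 in KO and 343 in WT. Epcam read 55.2 in KO and 39.8 in WT (0.35), Krt8 read 58.3 and 43.7 (0.31), and Cdh1 read 49.45 and 45.7 (0.084). Krt8 and Cdh1 thus lay above the filter for genes in both arrays, and Epcam in KO only. Esrp1, an epithelial splicing factor, went the other way at 25.8 and 44.2 (-0.53) and passed through its WT signal alone. Grhl2 and Trp63 were below the filter.

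Of 9 otic vesicle markers, 2 passed, and the summed signal was 248 in KO and 225 in WT. Oc90, which defines that tissue, was near 0 at 0.57 and 0.73. Eya1, which other tissues also express, read 70.55 and 38.5 (0.67) and passed through its KO signal alone. Otx1, the other otic marker that passed, was lower in KO at 142 and 164 (-0.19). Gbx2, below the filter for genes, read 25.6 and 6.89 (0.86). Otx1 supplied most of the otic sum in each array and, like Eya1, is not particular to that tissue. Gbx2 is also counted in the list of isthmus and FGF feedback genes below. Of 10 choroid plexus and roof plate markers, 5 passed, with sums of 1770 in KO and 1761 in WT. Ttr was low at 4.38 and 3.74, and Folr1 read 94.3 and 86.8 (0.10). Msx1 (0.33) and Clic6 (-0.19) were the farthest apart of that list.

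Endothelial markers, 10 of 15 passing (2 higher and 8 lower in KO), summed to 1133 in KO and 1190 in WT. Plvap at 0.28 and Egfl7 at -0.24 were the farthest apart. Head mesenchyme markers, 10 of 15 passing (8 higher and 2 lower in KO), summed to 3270 and 3165, with Twist1 (0.27) and Lum (0.25) the farthest apart. Gut endoderm and liver markers had 1 of 13 passing, Sox17 at -0.011, with sums of 104 in KO and 88.9 in WT. Heart and muscle markers had 0 of 12 passing, so their sums of 77.9 and 60.6 hold only signals below the filter. No marker in these tissue lists passed the filter and was 2-fold apart.

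Neural progenitor markers, 14 of 15 passing, summed to 16543 in KO and 18380 in WT, with Lhx2 (-0.67) and Notch1 (-0.39) the farthest apart. Of those passing, 2 were higher and 12 lower in KO, and the median over all 15 was -0.15. Early neuron markers, 15 of 15 passing, summed to 7508 and 8218, with Dcx (-0.38) and Stmn3 (-0.32) farthest apart. Among them 5 were higher and 10 lower in KO, with a median of -0.099. The list of isthmus and FGF feedback genes moved with Cldn10 in direction, with 18 of 18 measured genes higher in KO, where 50.3% of all genes were, and a median of 1.02. Of the 18, 13 passed the level filter, and 9 of these 13 were at least 2-fold higher, beside 0.237% of all genes passing. The 9 include Fgf8, Fgf17, Il17rd, Spry1 and Spry2, given above, and Pax8 (1.24), Sp8 (1.24), En1 (1.10) and Fgf18 (1.07). Of these, Fgf8, Fgf17, Pax8, Sp8, En1 and Fgf18 passed the filter through the KO array alone, as Cldn10 did. The list of isthmus and FGF feedback genes was known to differ in these arrays, so nothing is read from its counts. Its part in the difference of Cldn10 was not tested.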

How the data were processed

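The authors deposited 1 table of linear intensity values, 1 column per array and 45101 probe sets. The values come from Affymetrix Expression Console, per the submitters' processing notes; how probes were summarised is not given in the sources used here. Without the lowest and highest 2% of probe sets the mean was 100.0 in each array, so a common scale had been set. The number of arrays, 1 per group, limits precision, and no detection calls were used here.

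Arrays were scaled to a common median and taken as log2(signal + 16). Symbols came from the platform annotation, in which 34957 probe sets had 1 symbol, 920 had several, 9160 stayed unnamed here and 64 were array controls. Genes took the probe set with the highest mean. Of these, 18150 were ordered on chromosomes by RefSeq (GRCm38.p6), which also supplied the upstream sequences.

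The members and lists were chosen with earlier results of these data known. Named genes were all 9 members, list genes at least 2-fold apart, the 2 passing genes farthest apart in each list, those ranked next to Cldn10 and its neighbours. Further genes were chosen after their values were seen. Listed genes without a probe set of their own were not analysed here. Alternatives covered scaling, pseudocount, floor, filter, probe set choice, threshold and list summary. The calling steps were run on noise-free signals with planted fold changes, which checks the code and says nothing of the calls in these arrays. Python 3.11.15 was used with pandas 2.3.3, numpy 2.4.6, statsmodels 0.14.6 and matplotlib 3.10.9.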

Additional observations from a re-analysis of the deposited data

How the results depend on the processing

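No paired analysis was possible because there is 1 array per genotype, which also leaves no replicate to omit. The difference of Cldn10 depended on the handling of low signals, since its WT signal is near background. It was 2.46 with a pseudocount of 1, 2.43 with a floor of 16 and 0.93 with a pseudocount of 64. Under the 3 other scalings it stayed between 1.72 and 1.73. The other probe set rules could not change it, because Cldn10 has a single probe set. With a pseudocount of 64 the difference of Abcc4 was 0.97. The count of tight junction probe sets at least 2-fold apart was 0 with that pseudocount and 0 with the level filter at the 75th percentile. The median over the 9 genes was -0.038 when genes took their median probe set, and 0.198 as a mean over members. Over the 56 further genes the count stayed at 0 under all 11 alternatives run.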
